A study of Mus musculus with 2 samples.

Results

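The low-RNA barcodes described here are droplets of the deposited matrix that the authors' cell table does not hold. They were chosen as barcodes absent from the table with at least 2000 and under 7500 unique molecular identifiers (UMIs, which count single RNA molecules) and at most 10% of UMIs from the mitochondrially encoded genes. The rule found 438 of 5818 barcodes, 156 of 2986 in the low pigment library and 282 of 2832 in the high pigment library. The cells are B16 F10, a pigmented mouse melanoma line, which the labels call melanocytes. All were grown for 7 days after sparse seeding at 100 cells per cm2 in DMEM (high glucose, with 10% bovine serum), and no further treatment is named. After trypsin, side scatter in a flow cytometer was used to sort low pigment from high pigment cells, and each sort gave 1 library of the 10x Genomics 3' kit. Pairs of values below give the low pigment library first. With 1 library per group no difference has a replicate check, no test was made, and the 95% intervals cover counting error only.

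RNA of the 13 mitochondrially encoded genes is made and kept inside mitochondria. The long non-coding RNAs Malat1 and Neat1 are kept in the nucleus, Neat1 as the scaffold of paraspeckles. Messenger RNAs for secreted, membrane, lysosomal and melanosomal proteins are translated on the endoplasmic reticulum (ER), and those for ribosomal proteins, glycolytic enzymes and proteasome subunits on free ribosomes in the cytosol. Melanin is made in melanosomes, lysosome-related organelles whose enzymes Tyr, Tyrp1 and Dct are membrane proteins. The 3 places of RNA are background, and nothing here measured where an RNA was.

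The low-RNA barcodes held 664299 and 1571837 UMIs, 1.90% and 5.01% of their library's UMIs. Their median depth was 4070 UMIs (range 2004 to 7405) and 6177 UMIs (range 2057 to 7495). Table cells had medians of 16019.5 and 12557 UMIs. Every barcode of 7500 UMIs or more with under 10% mitochondrial UMIs was in the table and no other was, so depth and the mitochondrial share are what chose the low-RNA barcodes. At the upper limit the nearest low-RNA barcodes had 7405 and 7495 UMIs, and the nearest table cells 7597 and 7514. At the lower limit the nearest barcodes had 2004 and 2057 UMIs inside and 1992 and 1983 outside. At the mitochondrial limit the nearest inside had 9.75% and 9.99%, and the nearest outside 10.2% and 10.0%. The libraries shared 2 barcode sequences, 1 of them that of a low-RNA barcode, and Scrublet marked 0 low-RNA barcodes as doublets.

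The label of melanocyte lineage held by its markers, but whether each barcode holds a whole cell is not shown by these data. All 8 melanocyte markers had UMIs, and they summed to 8748 and 16722 CPM (counts scaled to 1000000 UMIs) in low-RNA barcodes, against 12615 and 16269 CPM in table cells. Leukocyte markers had 0 and 1 UMI in all, with Ptprc at 0 in both libraries. Fibroblast markers had 1 and 5 UMIs, keratinocyte markers 1 and 1, and erythroid markers 1 and 0. Of the 5 endothelial markers Pecam1 alone had UMIs, 7 and 15, and Pecam1 was also found in table cells. Schwann cell markers summed to 277 and 205 CPM against 264 and 190 CPM in table cells, led by Mbp.

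The low-RNA barcodes fell into 2 ranges of mitochondrial share. In the low pigment library 84 barcodes had under 0.5% mitochondrial UMIs, 12 had 0.5 to 1%, 3 had 1 to 2%, 2 had 2 to 3%, and the rest had more. The same bins held 19, 11, 9 and 6 high pigment barcodes. A limit of 2%, set after the distribution was seen, split them into mt-poor barcodes under 2% and mt-bearing barcodes at 2% or more. The mt-poor class held 99 of 156 low pigment barcodes (63.5%, exact Clopper-Pearson 95% interval 55.4 to 71.0%) and 39 of 282 high pigment barcodes (13.8%, 10.0 to 18.4%). Barcodes close to the limit, from 1 to 3%, numbered 5 and 15. The classes also differed in depth: mt-poor barcodes had medians of 3113 and 3132 UMIs, and mt-bearing barcodes medians of 5949 and 6385 UMIs.

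Malat1 (chromosome 19, 5795690 to 5802672 on the minus strand of build mm10) marked the same division, and the rule did not use it. No Malat1 UMI was found in 90 of 99 low pigment mt-poor barcodes (90.9%, 83.4 to 95.8%) and in 32 of 39 high pigment ones (82.1%, 66.5 to 92.5%). Among table cells 2 of 1900 and 4 of 2136 had none. Depth differs between these groups, so every barcode was also thinned to 2000 UMIs. After thinning, 92.9% and 82.1% of mt-poor barcodes lacked a Malat1 UMI, against 1.05% and 3.18% of table cells. The mt-bearing barcodes stood between in the low pigment library, where 21.1% (11.4 to 33.9%) lacked Malat1 after thinning, and near table cells in the high pigment library, at 2.47% (0.911 to 5.30%). Neat1 (chromosome 19, 5824708 to 5845478, minus strand), which is less abundant, was missing after thinning from 99 of 99 and 36 of 39 mt-poor barcodes and from 38.8% and 38.9% of table cells.

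**Figure D1:**
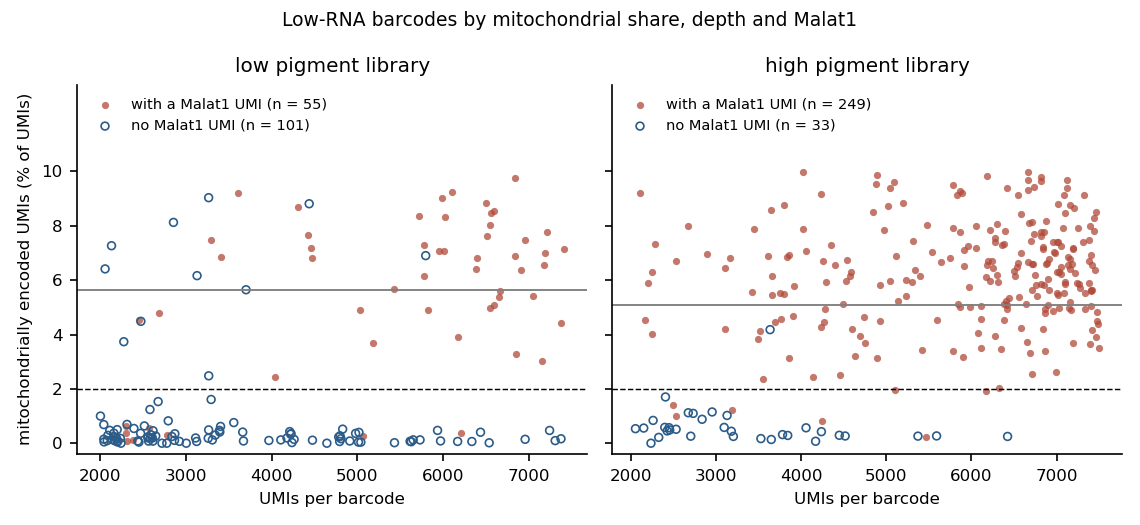
Each point is 1 low-RNA barcode, with its UMIs on the x axis and the mitochondrial share of its UMIs in percent on the y axis, low pigment library left and high pigment library right. Open circles have no Malat1 UMI (101 and 33 barcodes), the dashed line is the 2% limit and the grey line the median of table cells (5.62% and 5.07%); most open circles lie under the dashed line.

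The mt-poor share changed with depth. Among low pigment barcodes with at most 10% mitochondrial UMIs it was 81.8% from 2000 to 4000 UMIs, 62.8% from 4000 to 6000, 25% from 6000 to 7500 and 1.19% from 7500 to 10000. The same bins held 45.8%, 13.5%, 1.34% and 0.370% of high pigment barcodes. From 10000 to 15000 UMIs and at 15000 or more the share was 0.144% and 0.0893% in the low pigment library. In the high pigment library it rose again, to 0.640% and 2.89%. Under 2000 UMIs, outside the rule, there were 290 and 132 more barcodes with under 2% mitochondrial UMIs.

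**Figure D2:**
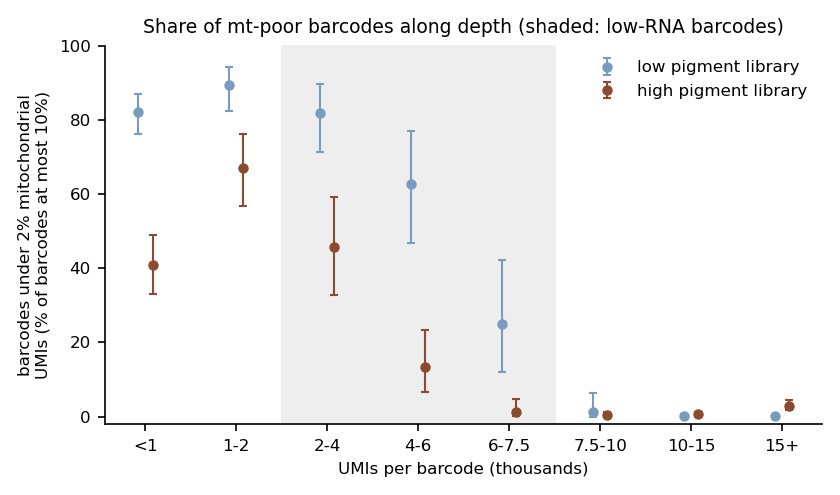
The share of barcodes under 2% mitochondrial UMIs, in percent of barcodes with at most 10%, is drawn in bins of UMIs per barcode for both libraries, with exact 95% binomial intervals, and the low-RNA range is shaded. In the low pigment library the share is 81.8% in the first shaded bin and 25% in the last, and in the high pigment library 45.8% and 1.34%.

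Against table cells of the same library, the mt-poor barcodes had less RNA of ER chaperones, matrix proteins, lysosomal proteins and pigment genes, and more of glycolytic enzymes, proteasome subunits and nuclear-encoded respiratory subunits, as shares of all UMIs. Genes with a mean of at least 100 CPM were compared by the ratio of summed CPM. At a limit of 1.5-fold, 20.1% of 1549 low pigment genes were higher and 15.8% lower, as were 20.3% and 19.8% of 1447 high pigment genes. The median gene stood 0.27 and 0.19 above 0 on the log2 scale, so a list's place is given below relative to that gene as well. Both libraries moved alike: of 1333 genes measured in both, 152 were lower in both, 136 higher in both and 0 opposite, with a Spearman rho of 0.77 across genes, which share 2 libraries and are not replicates. A list member was counted as higher if its ratio was at least 25% above 1 and as lower if at least 20% under 1, and this is called the list limit. Of all measured low pigment genes 44.4% passed it upward and 21.8% downward, and of high pigment genes 41% and 26.2%.

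The ER stress and chaperone list (unfolded protein response, 20 genes) was lower in 9 of 12 and 7 of 7 measured members, and higher in none of them. Its summed CPM ratio was 0.389 (0.362 to 0.419) and 0.261 (0.220 to 0.308), and its median lay 1.48 and 2.37 log2 units under the median gene. Hspa5, the main Hsp70 chaperone of the ER lumen (chromosome 2, 34771970 to 34777547, plus strand), had 250 CPM in mt-poor barcodes against 1130 CPM in low pigment table cells, a ratio of 0.221 (0.178 to 0.272). High pigment values were 192 against 725 CPM, a ratio of 0.265 (0.173 to 0.389). Hsp90b1, the Hsp90 of the ER, had 178 against 821 CPM and 133 against 667 CPM. The protein disulfide isomerases P4hb (ratios 0.196 and 0.237) and Pdia3 (0.388 and 0.207) were lower in both libraries, as was the chaperone Calr (0.505 and 0.220). Rrbp1, a ribosome-binding protein of the ER membrane, stood at 0.131 (0.0789 to 0.205) and 0.199 (0.0911 to 0.378). Atp2a2, the ER calcium pump, had 16 UMIs and 3 UMIs in mt-poor barcodes, with ratios of 0.196 (0.112 to 0.319) and 0.107 (0.0220 to 0.312).

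The list of ER translocation and glycosylation genes, added after the data were seen, had summed ratios of 0.705 and 0.655, with 5 of 11 and 8 of 11 measured members lower. Rpn1, a subunit of the oligosaccharyl transferase, was among the lowest at 0.260 and 0.172. A second added list, of surface receptors, transporters and integrins, was lower in 6 of 8 and 8 of 8 measured members. In the matrix list 4 of 4 measured members were lower in each library, with summed ratios of 0.367 and 0.281. Sparc, a secreted collagen-binding protein, had ratios of 0.347 (0.279 to 0.427) and 0.304 (0.220 to 0.409). Spp1 (osteopontin) had ratios of 0.509 and 0.127. The lysosome list was lower in 10 of 14 and 12 of 13 measured members, with summed ratios of 0.623 and 0.425. Psap, the precursor of the saposins that aid lipid breakdown, had ratios of 0.251 and 0.122, the peptidase Tpp1 0.216 and 0.249, and cathepsin D (Ctsd) 0.470 and 0.342.

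Among the 17 genes of melanin synthesis and melanosome structure, 7 of 10 and 8 of 10 measured members were lower, 2 and 1 were higher, and the summed ratios were 0.512 (0.494 to 0.532) and 0.433 (0.408 to 0.459). Tyrp1, a membrane enzyme of eumelanin synthesis (chromosome 4, 80834123 to 80851719, plus strand), had 278 against 1832 CPM in the low pigment library, a ratio of 0.152 (0.123 to 0.184). High pigment values were 503 against 2286 CPM, a ratio of 0.220 (0.171 to 0.279). Dct, the dopachrome tautomerase, was the most abundant gene of the list and had 2314 against 5856 CPM and 3153 against 8011 CPM. Pmel, which forms the melanosome fibrils, had ratios of 0.223 and 0.259. Gpnmb, a melanosomal glycoprotein, had ratios of 0.162 and 0.207, the tyrosinase gene Tyr 0.265 and 0.363, and the transporter Slc45a2 0.244 and 0.236. Mlana, a small melanosomal membrane protein, differed from these: its ratios were 1.28 (1.19 to 1.37) and 0.686 (0.597 to 0.785). It thus counted as higher in the low pigment library only, and the other higher members are not named here. The list also holds the transcriptional coregulator Cited1. Of the lineage transcription factors, whose proteins act in the nucleus, 3 of 3 measured members were lower in each library. Mitf had ratios of 0.314 (0.203 to 0.464) and 0.746 (0.555 to 0.982), and Sox10 of 0.799 (0.553 to 1.12) and 0.399 (0.206 to 0.697), so the low pigment Sox10 interval holds 1.

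In the list of nuclear-retained RNAs, 3 of 4 measured members were lower in each library. Gm42418 was higher, with ratios of 1.44 (1.28 to 1.62) and 1.62 (1.31 to 1.98). Where the RNA of Gm42418 is kept was not measured, so its ratio is not read as that of a nuclear RNA. The summed ratios, Gm42418 included, were 0.156 and 0.485. Malat1, Neat1 and Kcnq1ot1 were nearly absent from low pigment mt-poor barcodes. Malat1 had 286 against 5678 CPM, a ratio of 0.0504 (0.0411 to 0.0611), and Neat1 had 2 UMIs, 5.56 against 603 CPM, a ratio of 0.00921 (0.00112 to 0.0333). Kcnq1ot1, another nuclear RNA, had 0 UMIs against 220 CPM, which with a floor of 3 UMIs over the class (8.33 CPM) is at least 26.4-fold lower. Among high pigment mt-poor barcodes Malat1 had 2465 against 5778 CPM and Neat1 141 against 585 CPM. The high pigment Malat1 came from 7 of 39 barcodes, since 32 had no UMI, and reached 5.61% of the UMIs of 1 barcode.

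The highest summed ratios of all lists in each library were those of glycolysis and the proteasome. Glycolysis genes were higher in 7 of 10 and 9 of 11 measured members and lower in none of them, with summed ratios of 1.49 (1.45 to 1.53) and 1.71 (1.64 to 1.78) and medians 0.16 and 0.63 log2 units over the median gene. Gapdh had 5782 against 3312 CPM and 5744 against 2722 CPM, ratios of 1.75 (1.67 to 1.82) and 2.11 (1.96 to 2.26). Aldoa, the muscle-type aldolase, had ratios of 1.76 and 2.20. The proteasome list was higher in 21 of 29 measured members in each library, with summed ratios of 1.46 and 1.44 and medians 0.35 and 0.44 over the median gene. Psma1, a core subunit, had ratios of 2.16 and 1.76, and Psmc2, an ATPase of the regulatory particle, 1.91 and 1.79. Nuclear-encoded oxidative phosphorylation genes, whose RNAs are outside mitochondria, were higher in 32 of 55 and 37 of 55, with medians 0.14 and 0.30 over the median gene. Atp5b, the catalytic subunit of ATP synthase, had ratios of 1.43 and 2.19. Cytosolic ribosomal protein genes were higher in 33 of 79 and 50 of 79, but their median lay 0.04 and 0.19 over the median gene, so the low pigment list stood close to all genes. The list of replication-independent and polyadenylated histones was higher in 3 of 7 and 4 of 7, with summed ratios of 1.34 and 1.12. Since 44.4% and 41% of all measured genes were higher by the same limit, these few members are not read as raised. Among the highest genes in both libraries were Tubb4b, a tubulin (2.45 and 2.37), Ckb, a creatine kinase (2.41 and 2.22), the cytokine Mif (2.28 and 2.09), the translation factor subunit Eif3g (2.13 and 2.16) and Rps26 (2.07 and 2.49). Gapdh, Mif and the ribosomal protein genes have near-identical copies in the genome, which makes their counts less certain.

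**Figure D3:**
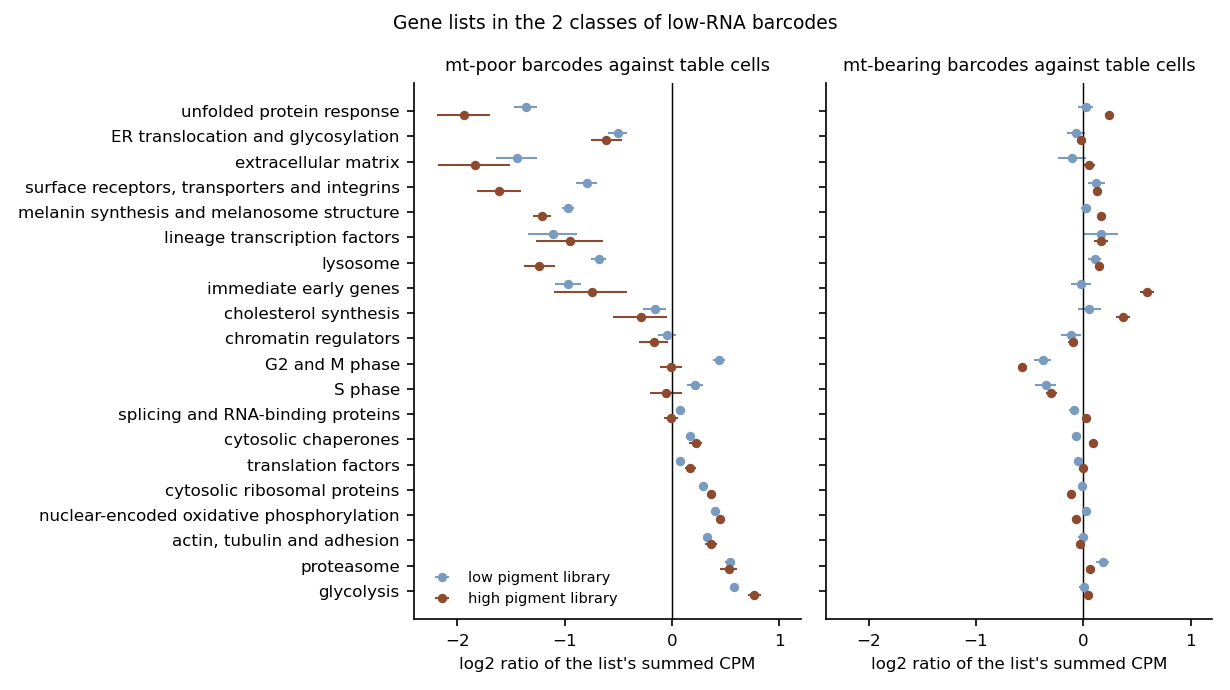
Points are log2 ratios of the summed CPM of each gene list, mt-poor barcodes against table cells on the left and mt-bearing barcodes on the right, with exact 95% counting intervals and 1 colour per library. On the left the unfolded protein response sum is at ratios of 0.389 and 0.261 and glycolysis at 1.49 and 1.71, while on the right the same lists are at 1.01 and 1.18 and at 1.01 and 1.03.

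The same differences were seen barcode by barcode after thinning to 2000 UMIs. The unfolded protein response list took a median of 0.15% of UMIs in low pigment mt-poor barcodes and 0.50% in table cells, and 0.05% and 0.40% in the high pigment library. Only 7 of 99 and 1 of 39 mt-poor barcodes lay above the table's median. For the melanin list 5 of 99 and 4 of 39 lay above it. For glycolysis 85 of 99 and 36 of 39 did. Thinned mt-poor barcodes held medians of 990 and 952 genes with a UMI, against 1102 and 1090 in table cells.

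Transcript length moved with these differences. In mt-poor barcodes the median log2 ratio of genes with a longest transcript under 1000 nt was 0.43 and 0.38. It was 0.19 and 0.10 for 2000 to 4000 nt, and -0.89 and -0.74 for 6000 nt or more. Of the 104 and 118 genes in the longest bin, 56.7% and 57.6% were at least 1.5-fold lower. Sptbn1, a spectrin of the cell cortex with a long transcript, had 4 and 2 UMIs in mt-poor barcodes and ratios of 0.0618 (0.0168 to 0.158) and 0.0865 (0.0105 to 0.312). The part of length in the differences of the lists was not tested. In mt-bearing barcodes the medians of all length bins lay between -0.09 and 0.09.

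**Figure D4:**
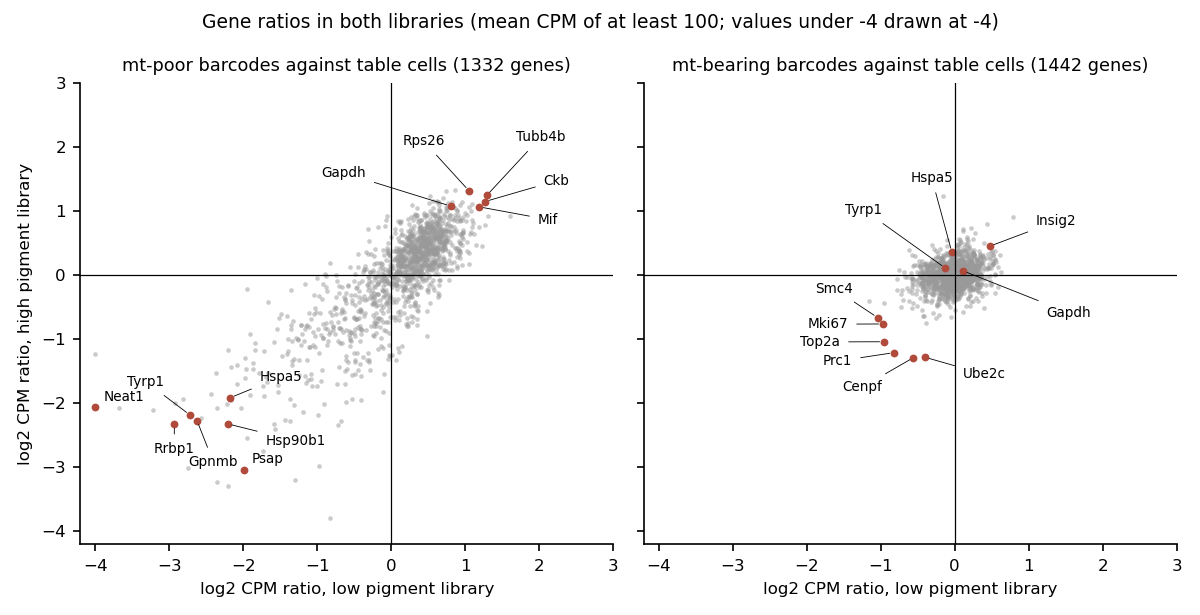
Each point is a gene with a mean of at least 100 CPM in both libraries, with its log2 CPM ratio in the low pigment library on the x axis and in the high pigment library on the y axis, mt-poor barcodes against table cells on the left and mt-bearing on the right. Kcnq1ot1, with 0 UMIs in low pigment mt-poor barcodes, is not drawn, and values under -4 are drawn at -4; the left cloud runs along the diagonal (rho 0.77) and the right one is compact (rho 0.22).

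The mt-poor barcodes were close to the shallower barcodes of low mitochondrial share and stayed apart from the shallowest table cells. Against barcodes under 2000 UMIs and under 2% mitochondrial UMIs, 3.37% of 1483 low pigment genes were 1.5-fold higher and 2.36% lower, and 6.4% of 1421 high pigment genes were higher and 9.78% lower. Against table cells of 7500 to 10000 UMIs, 19.3% of 1526 low pigment genes were higher and 15.7% lower, and 22.6% of 1468 high pigment genes were higher and 21.4% lower. The unfolded protein response sum had ratios of 0.340 and 0.228 there, and glycolysis 1.41 and 1.60. The table itself held 3 low pigment and 27 high pigment cells with under 2% mitochondrial UMIs, of which the high pigment ones had 15% of 1396 genes higher and 26.1% lower than all table cells of the library, themselves included.

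The mt-bearing barcodes, 57 low pigment and 243 high pigment, resembled table cells in most genes and had less RNA of cell cycle genes. Of 1593 low pigment genes 0.691% were 1.5-fold higher and 1.51% lower, and of 1581 high pigment genes 0.569% and 0.822%. By the list limit 7.72% were higher and 9.98% lower among low pigment genes, and 5.76% and 5% among high pigment genes. In the list of G2 and M phase genes 8 of 15 and 13 of 19 measured members were lower and none of them higher, with summed ratios of 0.769 (0.726 to 0.814) and 0.675 (0.657 to 0.693). In the S phase list 7 of 13 and 5 of 9 were lower, with summed ratios of 0.784 and 0.813. Top2a, the topoisomerase that untangles DNA before mitosis, had 131 against 255 CPM and 129 against 265 CPM, ratios of 0.515 (0.367 to 0.702) and 0.486 (0.418 to 0.563). The proliferation marker Mki67 had ratios of 0.510 and 0.589, the spindle protein Prc1 0.565 and 0.432, and the condensin subunit Smc4 0.486 and 0.631. The kinetochore protein Cenpf had ratios of 0.679 and 0.409, with a low pigment interval of 0.439 to 1.00. Ube2c, which serves the anaphase-promoting complex, had 0.759 (0.531 to 1.05) and 0.411 (0.351 to 0.478).

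In the pigment genes the low pigment mt-bearing barcodes had nearly the levels of table cells, and high pigment ones slightly higher levels. The melanin list had summed ratios of 1.01 (0.985 to 1.04) and 1.12 (1.11 to 1.13), with 1 of 12 and 5 of 13 measured members higher. Dct had ratios of 0.977 and 1.08, Tyrp1 0.916 and 1.08, and Tyr 1.12 (0.811 to 1.52) and 1.40 (1.23 to 1.60). Malat1 had summed ratios of 0.963 and 1.01, but its median share of UMIs per barcode, after thinning, was 0.25% and 0.35% against 0.45% and 0.50% in table cells. Only 17 of 57 and 86 of 243 mt-bearing barcodes lay above the table's median, and the highest shares were 6.65% and 4.15%. The gene Gm42418 had 1.73 (1.54 to 1.95) and 1.87 (1.76 to 1.98).

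Early response and cholesterol synthesis genes were higher in high pigment mt-bearing barcodes, and whether the libraries differ could not be tested. By the list limit all 5 measured immediate early genes of the high pigment library were higher, with a summed ratio of 1.51 (1.44 to 1.58), while 0 of 11 were higher and 3 lower in the low pigment library (0.987, 0.924 to 1.05). The AP-1 gene Fosb had 105 against 115 CPM among low pigment and 34.1 against 16.7 CPM among high pigment barcodes. The phosphatase gene Dusp1 had ratios of 0.894 (0.653 to 1.19) and 1.73 (1.28 to 2.30), and the stress factor Atf3 0.951 and 1.76. Hmgcs1, an early enzyme of cholesterol synthesis, had ratios of 0.968 (0.705 to 1.30) and 1.68 (1.31 to 2.13). These 4 genes lay under 100 CPM in the high pigment library, were not counted there and are named for comparison. In the cholesterol synthesis list 2 of 9 and 3 of 3 measured members were higher and none of them lower, with summed ratios of 1.04 (0.964 to 1.12) and 1.29 (1.24 to 1.35). Insig2, an ER protein that holds back sterol synthesis, was near the same ratio in both libraries, 1.39 (0.988 to 1.91) and 1.37 (1.18 to 1.58).

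Depth moved with these values. Against table cells of 7500 to 10000 UMIs (84 and 540 cells) fewer high pigment genes differed, but not fewer low pigment genes. Then 0 of 1584 high pigment genes (0%) differed 1.5-fold in either direction, and by the list limit 0.694% were higher and 0.505% lower. Of 1581 low pigment genes 1.52% were 1.5-fold higher and 1.33% lower, and by the list limit 9.17% and 10.1%. The median counting interval of a gene reached a factor of 1.377 among low pigment genes, wider than the list limit, and 1.145 among high pigment genes. Counting error alone adds called genes where it is wider, so these shares do not show that the libraries differ. The G2 and M phase sum had ratios of 1.09 (1.02 to 1.17) and 0.969 (0.941 to 0.998), and the immediate early sum 0.989 and 1.10. Top2a had ratios of 1.26 (0.842 to 1.87) and 0.898 (0.759 to 1.06). Fosb had 1.19 (0.757 to 1.84) and 1.32 (0.927 to 1.85), intervals that hold 1. Summed over all table cells, the G2 and M phase list moved with depth as well: it had 3605 and 4105 CPM at 7500 to 10000 UMIs and 5915 and 6241 CPM at 15000 or more.

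**Figure D5:**
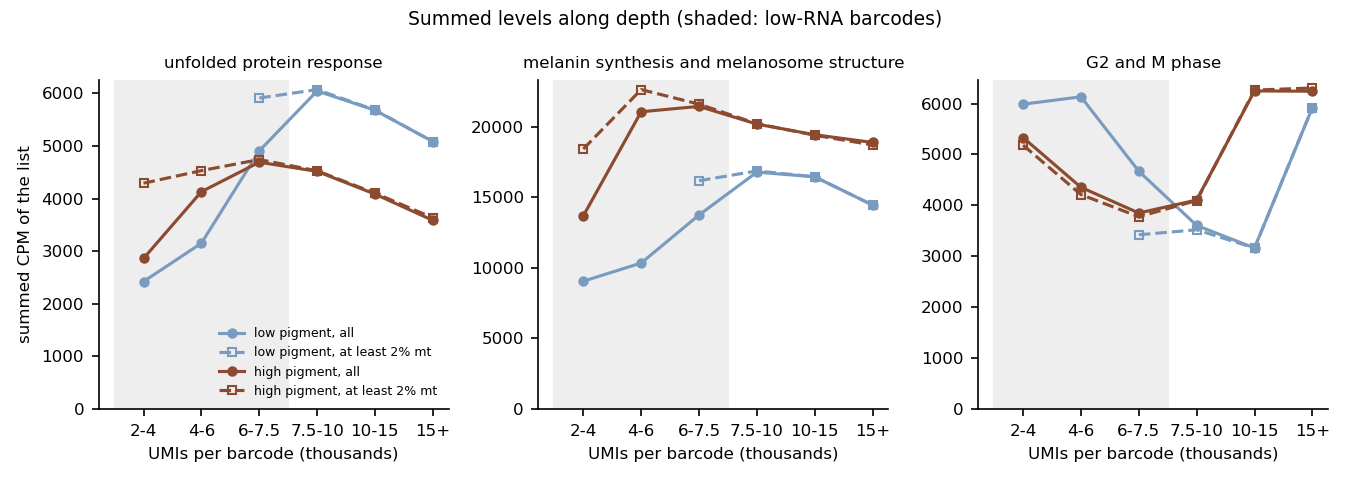
The summed CPM of 3 gene lists is drawn in bins of UMIs per barcode for barcodes with at most 10% mitochondrial UMIs, with filled points for all of them and open squares for those at 2% or more, and the low-RNA range shaded; bins under 20 barcodes are left out. Within the shaded range the unfolded protein response and melanin sums of all low pigment barcodes are lowest at 2000 to 4000 UMIs (2424 and 9056 CPM). Bins under 2000 UMIs are not drawn, and at 1000 to 2000 UMIs these sums are 2079 and 8815 CPM. The low pigment squares of the mt-bearing barcodes at 6000 to 7500 UMIs (5912 and 16173 CPM) are near those of the shallowest table cells.

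Without the division, the low-RNA barcodes of the libraries differed from table cells in different ways, and 63.5% and 13.8% of them were mt-poor, a part in the result that was not tested. Genes with a mean of at least 20 CPM were compared here. Of 5726 low pigment genes 266 were 1.5-fold higher and 989 lower, and of 5664 high pigment genes 71 were higher and 99 lower. By the list limit the shares were 17% and 33.2% of low pigment genes and 9.23% and 8.44% of high pigment genes. The median counting interval of a gene reached a factor of 1.434 among low pigment and 1.253 among high pigment genes. Counting error alone thus adds more called genes in the low pigment library, and its part in these counts was not tested. In the low pigment library 14 of 19 unfolded protein response genes, 12 of 16 melanin genes, 20 of 29 lysosome genes and 14 of 16 immediate early genes were lower, and 21 of 30 proteasome genes were higher. Among high pigment barcodes 37 of 50 G2 and M phase genes were lower and 10 of 13 immediate early genes were higher. Of genes with at least 100 CPM, 3.78% and 0.382% were 1.5-fold higher and 8.98% and 0.637% lower, and of 1416 measured in both libraries 2 were lower in both, 1 higher in both and 1 opposite.

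A few genes stood on the same side in both libraries. Mki67 had 76.8 against 161 CPM and 108 against 190 CPM, ratios of 0.476 (0.354 to 0.627) and 0.565 (0.482 to 0.659). Smc4 had ratios of 0.577 and 0.641, Atad2, a chromatin ATPase, 0.692 and 0.688, and the deubiquitinase Usp1 0.696 and 0.703. Fdps, the farnesyl diphosphate synthase of the sterol pathway, had ratios of 1.66 (1.48 to 1.86) and 1.44 (1.30 to 1.58). The transcriptional coregulator Cited1, a member of the melanin list, had 1.5 and 1.32. The calcium-binding protein S100b had 1.31 and 1.34, and the proteasome subunit Psmb5 1.48 and 1.27. Ube2c went to opposite sides, with 257 against 156 CPM (ratio 1.65, 1.41 to 1.92) in low pigment and 151 against 288 CPM (0.523, 0.458 to 0.595) in high pigment barcodes.

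The comparison of high with low pigment within the low-RNA barcodes cannot be told apart from the makeup of the classes, so it was read within each class. Among mt-bearing barcodes 5.8% of 1585 genes were 1.5-fold higher in the high pigment library and 3.97% lower, and among table cells 2.89% of 1557 were higher and 2.63% lower. The median counting interval of a gene reached a factor of 1.343 to either side among mt-bearing barcodes and 1.037 among table cells. Counting error alone adds called genes where it is wider, so these shares do not show that the classes differ. Among mt-bearing barcodes the melanin list was higher by the list limit in 8 of 13 measured members. By that limit 18.7% of all genes were higher and 14.3% lower. The melanin sum had a ratio of 1.41 (1.37 to 1.46) against 1.28 (1.28 to 1.29) in table cells. Mitf, the master regulator of the melanocyte lineage, had 597 against 322 CPM, a ratio of 1.85 (1.5 to 2.31), and 2.29 (2.22 to 2.35) in table cells. Dct had a ratio of 1.51 (1.43 to 1.58) and 1.37 (1.36 to 1.38) in table cells. Immediate early genes were lower in high pigment barcodes, at a summed ratio of 0.450 (0.416 to 0.487) among mt-bearing barcodes and 0.294 (0.290 to 0.298) in table cells, and cholesterol synthesis had 0.665 and 0.535. Among mt-poor barcodes 8.57% of 1424 genes were higher and 11.4% lower, with a median interval factor of 1.579, wider than the 1.5-fold limit. There the melanin sum had a ratio of 1.08 (1.01 to 1.16), while the median share per barcode went the other way, at 0.70% of thinned UMIs in low pigment and 0.45% in high pigment barcodes (highest 1.85% and 3.3%). Mitf had 378 against 69.5 CPM, a ratio of 5.44 (3.31 to 9.15).

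Cell cycle phases were called after thinning to 2000 UMIs. The call was that of the authors' deposited table in 78.7% and 77.1% of table cells, and without thinning in 81.8% and 75%. Among low pigment mt-bearing barcodes 50.9% (37.3 to 64.4%) were called G1, and among high pigment ones 48.6% (42.1 to 55.0%). Table cells had 36.7% (34.5 to 38.9%) and 26.2% (24.3 to 28.1%). These are table cells of all depths, and phase shares were not made for those of 7500 to 10000 UMIs. Against the latter the G2 and M phase sum of mt-bearing barcodes differed less, as given above. The part of depth in the G1 shares was not tested. Among mt-poor barcodes 23.2% (15.3 to 32.8%) and 17.9% (7.54 to 33.5%) were called G1, and 45.5% (35.4 to 55.8%) and 51.3% (34.8 to 67.6%) G2M. The calls used every gene of the cycle lists that was found in the matrix. Only 18 genes of the G2 and M phase list and 15 of the S phase list had a mean of at least 100 CPM in the low pigment mt-poor comparison. No cycling is read from the mt-poor calls. The lists held fewer such genes in the mt-bearing comparison, so those calls have the same limit. In mt-poor barcodes the G2 and M phase list was higher in 9 of 18 and 9 of 20 measured members and lower in 2 and 8, with summed ratios of 1.36 and 0.994. The S phase list was higher in 4 of 15 and 3 of 11 and lower in 4 and 4. By the same limit 44.4% and 41% of all measured genes were higher, and 21.8% and 26.2% lower. Mki67 had ratios of 0.448 (0.293 to 0.658) and 0.311 (0.134 to 0.614). Cdk1, the mitotic kinase, had ratios of 2.48 (2 to 3.05) and 1.90 (1.26 to 2.76) in mt-poor barcodes against table cells, and Tyms, the thymidylate synthase, 3.04 (2.44 to 3.74) and 1.89 (1.18 to 2.87).

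By correlation with the mean profile of each of the authors' deposited clusters, on thinned counts, 79.8% (70.5 to 87.2%) of low pigment mt-poor barcodes were nearest to cluster 2 and 57.9% (44.1 to 70.9%) of mt-bearing ones to cluster 1. Of low pigment table cells, thinned alike, 53.2% were nearest to cluster 2 and 44.6% to cluster 1. Among high pigment barcodes 76.9% (60.7 to 88.9%) of the mt-poor and 53.1% (46.6 to 59.5%) of the mt-bearing class were nearest to cluster 0, as were 82.9% of table cells. The deposited table places 71.2% of high pigment cells in cluster 0, so this measure leaned towards it. With the 2000 most variable genes in place of all measured ones, the leading cluster of high pigment mt-bearing barcodes was cluster 3, at 45.7% against 31.3% for cluster 0. Of high pigment table cells 21.7% were then nearest to cluster 3 and 68.0% to cluster 0. With all measured genes, table cells returned to their own cluster in 85.7% and 75.9% of cases.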

How the data were processed

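The authors deposited UMI counts per gene and barcode as 1 matrix of both libraries; the submitters' processing notes name Cell Ranger 6.1.2 and mm10. How intronic reads were treated was not given in the sources used here. A cell table was also deposited by the authors, with UMI and gene counts, the percent of mitochondrial and ribosomal UMIs, phases and cluster numbers per cell. UMIs per cell differed by at most 17 between table and matrix. Per the barcode suffix, counts were summed over barcodes of a group and library and scaled to CPM. Ratios have exact conditional binomial 95% intervals and shares exact Clopper-Pearson intervals, and both leave out variation between barcodes, sorts and cultures. Genes with a mean of at least 20 CPM (100 CPM for the 2 classes) were counted by size at 1.5-fold, and list members at 25% above or 20% under 1; no test was made, and cells were not treated as replicates.

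The members, the 31 gene lists and the 3 added ones were chosen with earlier results of these data known, and the 2% limit was set after the distribution was seen. The lists of ER translocation, of surface receptors and of mitochondrial protein import were the added ones. Text genes are the 14 highest and 14 lowest in the same direction in both libraries, the extremes of each list, those that differ most between the libraries, and, for the 2 classes, genes chosen after their values were seen. Thinning drew 2000 UMIs per barcode without replacement, and no barcode compared was shallower. Phases and Scrublet (expected rate 0.06) used scanpy 1.11.5; Python 3.11.15, numpy 2.4.6, scipy 1.17.1 and pandas 2.3.3 did the rest. Scrublet marked 14 low pigment and 14 high pigment table cells, 0.737% and 0.655%. Positions and transcript lengths are those of GENCODE mouse release 21 on the same build, and 99.9% of compared genes had a length. The ratio and its interval were tested on simulated counts with counting error only, so that check does not cover variation between barcodes. A count of 3 UMIs, taken as the floor of detection, is 4.52 and 1.91 CPM in the low-RNA barcodes of the low and high pigment library.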

Additional observations from a re-analysis of the deposited data

Results flagged for a closer look

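Ube2c and the immediate early genes stood on opposite sides in the libraries when all low-RNA barcodes were set against table cells, and this difference was not tested, with 1 library per group. The log2 ratio of Ube2c was 0.72 among low pigment and -0.93 among high pigment barcodes. The median log2 ratio of the immediate early genes was -0.45 and 0.64. The low pigment low-RNA barcodes were 63.5% mt-poor and the high pigment ones 13.8%.

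Barcodes of the same depth, 2000 to 7500 UMIs, but with over 10% mitochondrial UMIs (86 low pigment and 78 high pigment) took no part in the comparisons and had high levels of the nuclear RNAs. In CPM over all other genes, Malat1 had 21113 and 18521, low pigment first, against 6017 and 6082 in table cells and 287 and 2481 in mt-poor barcodes. Neat1 had 1416 and 1031, against 639 and 616 in table cells. Gapdh had 1884 and 2215 on this scale, against 3509 and 2866 in table cells. The melanin list had 31489 and 39073, against 15954 and 20331, and the unfolded protein response list 9466 and 7666, against 5586 and 4147.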

How the results depend on the processing

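Each group is 1 library, so leaving out a replicate was not possible. No paired analysis was possible because each group has 1 library and no replicate number. Of the values recomputed, 44 of 76 counts of genes stayed within 1.5 times and 32 moved. Of list medians 402 held, 333 moved and 7 changed side. Of named genes 858 held, 351 moved and 23 changed side. A change of side was counted only where the main value had passed the list limit, or 1.5-fold for named genes. Smaller values that turned are among those that held or moved. Of shares of barcodes 18 held and 18 moved, and all 8 per-barcode medians held. For all low-RNA barcodes the low pigment library had 266 genes 1.5-fold higher and 989 lower, and the high pigment library 71 and 99. With at most 5% mitochondrial UMIs these were 621, 1704, 285 and 437. With a mean of at least 5 CPM they were 556, 2223, 376 and 452, and with at least 100 CPM 59, 140, 6 and 10, where the chromatin median turned to 0.0078. With a minimum of 4000 UMIs the high pigment library had 112 higher. With the median gene set to 1 the low pigment library had 435 higher, and the mt-poor counts of higher genes, 311 and 294, became 86 and 141.

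With barcodes called G1 only, 417 low pigment genes were higher, and 273 and 166 high pigment genes higher and lower; the low pigment log2 values turned to 0.10 for lineage factors, 0.011 for Cenpf, -0.54 for Ube2c, 0.026 for Slc7a11 and -0.034 for Tyms. Against table cells of 7500 to 10000 UMIs, 423 low pigment genes were higher, and 25 and 59 high pigment genes higher and lower. There Mki67 (0.0081), Smc4 (0.0010), Rrm1 (0.15) and Cenpf (0.53) turned in the low pigment and Ube2c (0.49) and Prc1 (0.25) in the high pigment library. For mt-bearing barcodes this setting gave 24 low pigment genes higher in place of 11, and 0 and 0 high pigment genes in place of 9 and 13; Top2a (0.34), Mki67 (0.11) and Prc1 (0.38) turned in the low pigment and Prc1 (0.14) and Ube2c (0.14) in the high pigment library.

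Settings chosen after seeing the data took 1 class at a time. Under 2% mitochondrial UMIs, 793 and 1766 low pigment and 803 and 1807 high pigment genes were higher and lower, and the high pigment immediate early median turned to -0.42 and Ube2c to 0.78. At 2% or more, 427 and 483 low pigment genes were higher and lower, and 119 high pigment genes higher. Low pigment medians turned to 0.036 for melanin, 0.10 for lineage factors, 0.24 for mitochondrially encoded genes and 0.071 for lysosome. Single genes turned to -0.40 for Ube2c, -0.052 for Birc5, -0.44 for Hmgb2, 0.17 for Tyr, 0.19 for Pmel, 0.23 for Slc7a11 and -0.27 for Tyms. The cause was not tested beyond what each setting changes.

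Phase shares moved with depth. Without thinning, low-RNA barcodes had 49.36% and 47.16% in G2M and 11.35% of high pigment ones in S; table cells had 32.11% G1 and 40.37% G2M in the low pigment, and 19.57% G1, 11.47% S and 68.96% G2M in the high pigment library. Thinned to 4000 UMIs, table cells had 26.84% G1, 36.47% S and 36.68% G2M, and 17.23%, 19.9% and 62.87%. By the 2000 most variable genes, 2.564% of low pigment barcodes were nearest to cluster 3, and 36.52%, 13.48% and 40.43% of high pigment ones to clusters 0, 1 and 3. A count of 3 UMIs is 8.33 and 22.2 CPM in mt-poor barcodes, so counts of 1 to 3 UMIs there have wide intervals.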
